A study of Rattus norvegicus with 2 samples.

Results

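The genes described here encode 7 subtypes of adrenergic receptor, the cell-surface receptors for noradrenaline and adrenaline. They are the alpha-1 receptor genes Adra1a, Adra1b and Adra1d, the alpha-2 receptor genes Adra2a, Adra2b and Adra2c, and the beta-1 receptor gene Adrb1. Their members on the array were all probe sets of the deposited value table with one of these genes as the single gene symbol, which gave 10 probe sets out of 8799 and 7 genes out of 4736 named ones. RNA came from rat small mesenteric arteries of the first and the second branching order, the muscular vessels that carry blood to the intestine. One pool of total RNA from 20 sham-operated rats was set against one pool from 20 rats with prehepatic portal hypertension, produced by partial ligation of the portal vein. The labels give no strain, age or time after surgery. Each pool was hybridised to a single Affymetrix RG_U34A array, a design that allows no test and whose precision is limited by the number of arrays. Where a pair of signals is printed, the sham pool comes first and the portal hypertensive pool second.

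Noradrenaline released by sympathetic nerves in the artery wall constricts it mainly through alpha-1 receptors on smooth muscle, which couple to the G proteins of the Gq family, phospholipase C and calcium release. Alpha-2 receptors couple to Gi proteins, which lower cyclic AMP, and sit both on nerve endings, where they restrain noradrenaline release, and on vascular cells. Beta receptors couple to Gs proteins, which raise cyclic AMP and relax vascular smooth muscle. A weak response of the mesenteric arteries to constrictors is a known feature of portal hypertension, and the comparison asked whether receptor mRNA differed between the pools.

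Of the 7 receptor genes, 4 had signals below the floor set here in at least 1 pool on every probe set. The floor below which a signal was treated as not measured was 330.9 intensity units, the 40th percentile of the signals from both arrays without controls, so the share of probe sets above it follows from this choice and says nothing about detection. On both arrays 3 of the 10 probe sets lay above it, 1 each for Adra1a, Adra1d and Adra2b. Another 2, both for Adra2a, lay above it in the sham pool only, and 5 lay below it in both pools, among them the only probe sets of Adra1b, Adra2c and Adrb1. A second gauge of background came from the 15 bacterial and 4 yeast control probe sets, whose targets are not rat genes. In the sham pool their signals ran from 18 to 228.1 with a median of 72.9. In the portal hypertensive pool they ran from 11.1 to 242.4 with a median of 77.8. The probe sets of Adra1b and Adrb1, 1 of Adra1d and 1 of Adra2a lay within this range in both pools, while Adra2c lay between it and the floor in the sham pool only. The other 2 Adra2a probe sets, at 439.7 and 314.1 and at 354.6 and 317.7, exceeded every control signal in both pools.

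**Figure D1:**
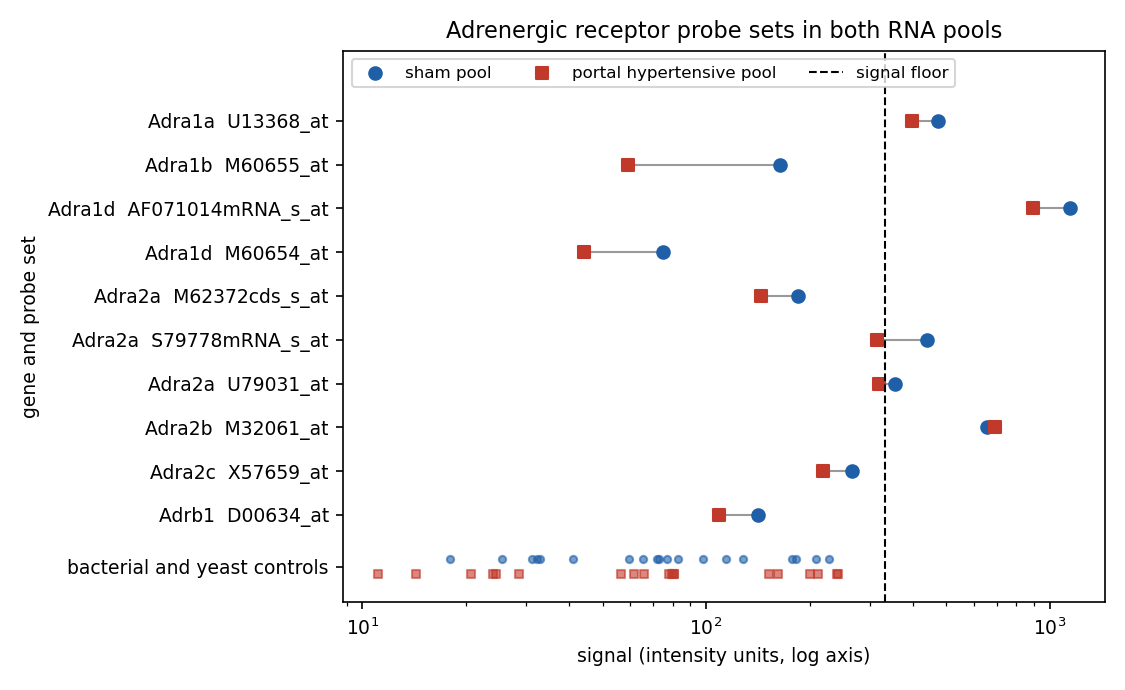
Signal of each receptor probe set on a log axis in intensity units, with 1 circle for the sham pool and 1 square for the portal hypertensive pool, the floor of 330.9 as a dashed line, and the 19 bacterial and yeast control probe sets in the bottom row. Both signals lie to the right of the floor for 1 probe set each of Adra1a, Adra1d and Adra2b, and the portal hypertensive signal lies to the left of the sham signal on every probe set except that of Adra2b.

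Among the subtypes measured in both pools, Adra1d and Adra1a had lower signals in the portal hypertensive pool and Adra2b a slightly higher one, and none of the 3 differences reached 1.5-fold. As background, 5.38% of the 4960 probe sets measured on both arrays were at least 1.5-fold lower and 3.1% at least 1.5-fold higher, which is 267 and 154 probe sets, or 214 and 202 after quantile normalization. A lower signal of any size was found for 53.1% of them. Where a gene had several measured probe sets, their log2 ratios had an SD of 0.30 about the mean of that gene, which is 1.23-fold (789 genes with 1801 probe sets). This scatter leaves out all variation between rats and between arrays.

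Adra1d encodes the alpha-1D receptor, a constrictor subtype of large and mesenteric arteries. Its probe set AF071014mRNA_s_at read 1146.2 and then 891, so the portal hypertensive pool was 1.29-fold lower, a log2 ratio of -0.36. Both signals were well clear of the floor, at 3.46 and 2.69 times its value. Of the 1180 probe sets with a mean log2 signal within 0.5 of this one, 17.6% had a lower ratio, and their central 95% ran from -0.86 to 0.68. The suffix of this probe set marks probes that other transcripts may share. The other Adra1d probe set, M60654_at, gave 74.8 and 44.1, at 0.23 and 0.13 times the floor and among the signals of the control probe sets. Both probe sets were thus lower in the portal hypertensive pool, but they disagreed on whether Adra1d was measurable at all, and without the probe sets that carry such a suffix the gene had no value.

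Adra1a encodes the alpha-1A receptor, the constrictor subtype of many resistance arteries. Its single probe set, U13368_at, read 471.6 and 397.3, so the portal hypertensive pool was 1.19-fold lower with a log2 ratio of -0.25. This is within the scatter of 0.30 between probe sets of a gene, and the signals were only 1.42 and 1.20 times the floor. At that level 35.8% of 1198 probe sets had a lower ratio, with a central 95% from -1.27 to 1.05. A difference inside this range could not be told apart from the spread of other probe sets at that signal.

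Adra1b encodes the alpha-1B receptor, the remaining alpha-1 subtype. Its single probe set, M60655_at, gave 164.6 and 59.1, below the floor in both. The deposited signals differed 2.79-fold, the widest gap among the 10 probe sets, but no ratio is given for it at the main setting because neither value counts as measured. Among 944 probe sets of like level, 21.3% were at least 1.5-fold lower and 7.31% had a lower ratio than Adra1b, and the central 95% of their log2 ratios ran from -2.04 to 2.22. The control probe sets varied as widely, with 5 of 19 at least 1.5-fold lower, 4 at least 1.5-fold higher, and log2 ratios from -2.0 to 1.88.

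The alpha-2 genes split by state, with Adra2b measured in both pools, Adra2a at the floor and Adra2c below it. Adra2b encodes the alpha-2B receptor, a subtype that can constrict arteries directly. Its probe set M32061_at read 655.6 and 694.2, about 1.98 and 2.10 times the floor. The portal hypertensive pool was 1.06-fold higher, a log2 ratio of 0.08, and 66.7% of the 1191 probe sets of like level had a lower ratio.

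Adra2a encodes the alpha-2A receptor, the main subtype on sympathetic nerve endings, and had 3 probe sets. S79778mRNA_s_at read 439.7 and 314.1. U79031_at had 354.6 and 317.7, and M62372cds_s_at had 185.4 and 144.4. All 3 were lower in the portal hypertensive pool. S79778mRNA_s_at and U79031_at both straddled the floor, while M62372cds_s_at was below it in both pools. Against the floor, Adra2a was at least 1.33-fold lower on S79778mRNA_s_at and at least 1.07-fold lower on U79031_at, bounds that depend on the floor. With the deposited signals taken as they are, the log2 ratios of the 3 probe sets were -0.49, -0.16 and -0.36, and in their level ranges 20.7%, 43.9% and 31.3% of probe sets had a lower ratio.

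Adra2c encodes the alpha-2C receptor, which also restrains noradrenaline release and is known from cold-induced constriction of skin arteries. X57659_at gave 265.1 and 219.3, at 0.80 and 0.66 times the floor. Adrb1 encodes the beta-1 receptor, best known for driving the heart. D00634_at gave 141.7 and 109.2, within the range of the control probe sets in both pools. The deposited signals of both were lower in the portal hypertensive pool, with log2 ratios of -0.27 and -0.38 that stand as a description of signals below the floor.

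Across the 10 probe sets the deposited signal was lower in the portal hypertensive pool on 9 and higher on 1, so that 6 of 7 genes were lower on all of their probe sets. Over all 8740 probe sets that are not controls, 52.6% were lower. The median log2 ratio of the 10 was -0.36, against -0.03 for all probe sets. After quantile normalization 9 were still lower, with a median of -0.31 and 50.2% of all probe sets lower, and after a loess trend was removed 9 were lower, with a median of -0.32 and 50.5%. At least 1.5-fold lower were 2 of the 10, the background-level probe sets of Adra1b and Adra1d, against 12.7% of all probe sets. Of all probe sets below the floor in both pools, 50.7% were lower by any amount, 19.8% were at least 1.5-fold lower and 20.2% at least 1.5-fold higher. The 10 probe sets come from the same pair of arrays and several share a gene, so their common direction is not a count of independent observations.

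**Figure D2:**
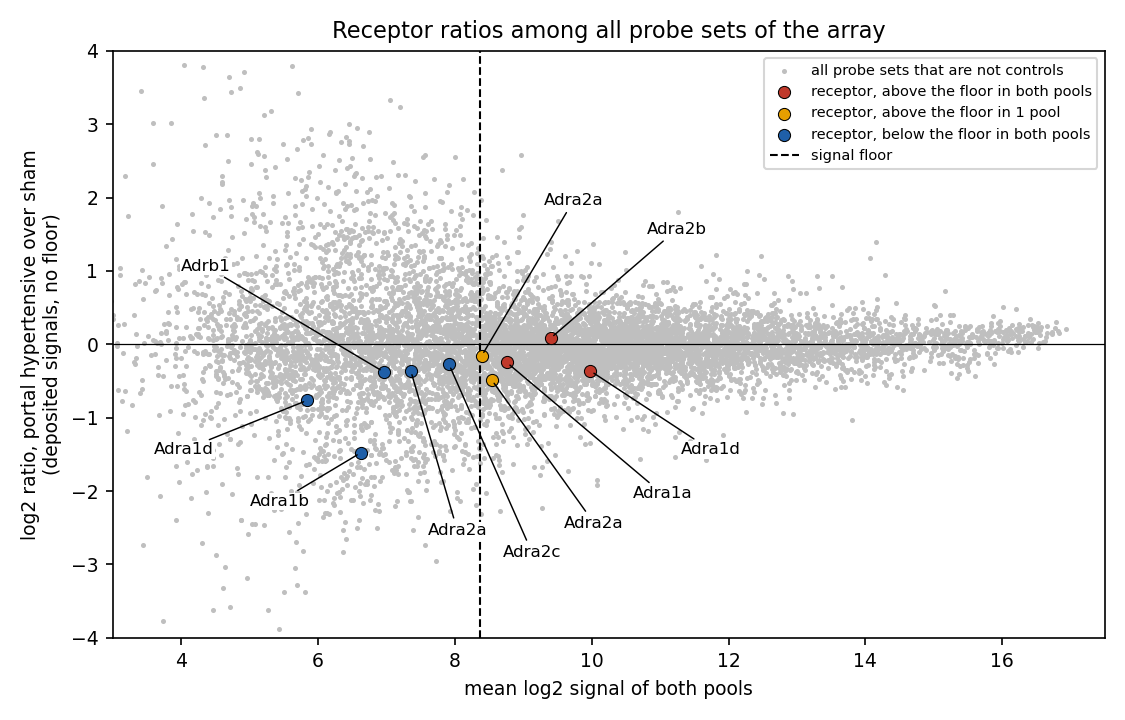
Log2 ratio of the portal hypertensive over the sham pool, from deposited signals without a floor, against the mean log2 signal for all 8740 probe sets that are not controls (grey, 38 outside the axes) and the 10 receptor probe sets (coloured by their state at the floor). The grey cloud widens to the left of the floor, where Adra1b at -1.48 and the second Adra1d probe set at -0.76 lie inside it, and the 3 probe sets measured in both pools lie between -0.36 and 0.08.

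The regulatory sequence before the start of Adra1d and of Adra2b is shown because these are the genes measured in both pools that have an entry in the promoter table. The arrays measure mRNA and not promoter activity. Both are the 250 bases before the gene's start in RefSeq on the rat assembly GRCr8, 5′ to 3′ on the gene's strand, at chr3:139262332-139262581 on the minus strand for Adra1d and chr3:135038231-135038480 on the plus strand for Adra2b. Capitals mark matches to the GC box GGGCGG, to the TATA box TATAAA or to the cyclic AMP response element TGACGTCA on either strand.
Adra1d: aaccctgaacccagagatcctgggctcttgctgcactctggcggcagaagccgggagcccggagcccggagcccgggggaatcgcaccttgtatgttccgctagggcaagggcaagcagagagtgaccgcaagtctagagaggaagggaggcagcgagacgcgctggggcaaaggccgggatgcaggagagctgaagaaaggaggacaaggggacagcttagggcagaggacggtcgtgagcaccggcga
Adra2b: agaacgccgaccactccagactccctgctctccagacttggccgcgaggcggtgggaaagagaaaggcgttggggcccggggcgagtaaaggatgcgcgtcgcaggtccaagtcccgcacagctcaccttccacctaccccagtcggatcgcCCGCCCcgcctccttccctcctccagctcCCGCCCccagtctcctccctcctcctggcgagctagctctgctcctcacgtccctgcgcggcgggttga
The Adra1d window is 64% G or C and holds 0 matches to the 3 motifs. The Adra2b window is 68% G or C and holds 2 GC boxes and 0 matches to the other motifs. Of 33469 rat promoter windows of the same length, 30.5% hold a GC box, 12.9% a TATA box and 1.59% a cyclic AMP response element. Their median G and C content is 51.2%.

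Genes that act with these receptors were taken from lists chosen by function, and the whole array served as comparison. Of the 3351 genes with a value, meaning at least 1 probe set above the floor in at least 1 pool, 5.04% were at least 1.5-fold lower, 3.13% were at least 1.5-fold higher and 53.2% were lower by any amount, with a median log2 ratio of -0.02. Adrb3, the beta-3 receptor gene of fat cells, had signals of 1472.9 and 1164.1, a log2 ratio of -0.34. Its single probe set carries a suffix, so the gene had no value without suffixed probe sets.

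Genes of noradrenaline synthesis, storage and clearance went both ways. Of the 11 list members on the array 8 had a value, of which 6 were below 0, 1 was at least 1.5-fold lower and 1 at least 1.5-fold higher, with a median of -0.15. Th, the rate-limiting enzyme of noradrenaline synthesis, had signals of 926.9 and 840.4, a log2 ratio of -0.14. Slc6a2, the transporter that takes noradrenaline back into nerve endings, had 767.3 and 695.7 on one probe set and lay below the floor on the other. Dbh, the enzyme that makes noradrenaline from dopamine, was below the floor in both pools, with signals of 60.8 and 25.1. The ratios past 1.5-fold belonged to Pnmt, the enzyme that makes adrenaline, with signals of 506 and 857.8, and Slc22a2, an organic cation transporter, with 724 and 418.1. With a 60th-percentile floor neither had a value, and Pnmt had none without suffixed probe sets. Maoa, which breaks noradrenaline down, had a log2 ratio of -0.22 and Slc22a3, a transporter that clears it outside nerves, -0.21.

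The G protein and desensitisation lists held no gene past 1.5-fold. Of the 15 G protein genes listed, the 9 on the array all had a value, 5 below 0 and 4 above, with a median of -0.03. The Gq family alpha genes of the list, Gnaq, Gna11 and Gna14, were not among them. The list therefore does not cover the Gq coupling of alpha-1 receptors. Gnas, which encodes the Gs alpha subunit, had 0.10 as the median of its 4 log2 ratios, and Gnai1, a Gi alpha subunit gene, 0.27. Gnao1, the Go alpha subunit gene, had -0.48 over 2 probe sets, 1 of them above the floor in the sham pool only. Gnai2, another Gi alpha gene, and Gng5, a gamma subunit gene, had -0.27 and -0.24, but turned to 0.09 and 0.11 on the probe set of highest signal, so their direction was not settled. Gnaz, another gene of the Gi family, was above the floor in the sham pool only, with -0.46 as a limit. Of 13 genes for receptor kinases, arrestins and RGS proteins, which switch receptor signalling off, 9 had a value, 7 below 0 and 2 above, with a median of -0.08.

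Grk2, the kinase that marks active adrenergic receptors for arrestin, read 1073.1 and 920.7 where it was measured. Its log2 ratio of -0.22 turned to 0.42 when its background-level probe set was taken in. Grk3, a related kinase gene, had -0.14. Arrb2, one of the arrestin genes, had -0.34 and 0.07 on its 2 probe sets, and Arrb1, the other, was below the floor in both pools at 25.4 and 38.8. Rgs19, a regulator of Gi signalling, had 0.41. Pdcl, a phosducin-like binding protein of G protein beta-gamma subunits, had -0.29 as the median of -0.03 and -0.54 on its 2 probe sets. Both carry a suffix, so Pdcl had no value without suffixed probe sets.

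Effector genes are read here against the 53.2% of all genes that were below 0. For alpha-1 effectors, all 12 genes were on the array and 11 had a value, 8 below 0 and 3 above, with 0 past 1.5-fold in either direction. Their median of -0.13 was -0.050 after quantile normalization and -0.085 after the loess. Itpr2, an inositol trisphosphate receptor gene of calcium release, had a log2 ratio of -0.48, the kinase gene Prkcd -0.34, and the phospholipase C genes Plcb4 and Plcb1 -0.33 and -0.31. Prkcz, another kinase gene, was above the floor in the sham pool only and had -0.49 as a limit. For the cyclic AMP effectors of beta and alpha-2 receptors, 13 of 15 genes had a value, 9 below 0 and 4 above, with a median of -0.21. In that list 2 genes were at least 1.5-fold lower and 0 higher. Prkar1b, a regulatory subunit of protein kinase A, had signals of 3047.7 and 1964.2, a log2 ratio of -0.63, and Creb1, the transcription factor that the kinase activates, had 522.7 and 339.9, a log2 ratio of -0.62 that ended just above the floor. Creb1 was at -0.54 and short of 1.5-fold after quantile normalization, and it had no value with the floor at the 60th percentile or without suffixed probe sets, since its single probe set carries a suffix. The other regulatory subunit genes Prkar2b and Prkar2a had -0.53 and -0.31.

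**Figure D3:**
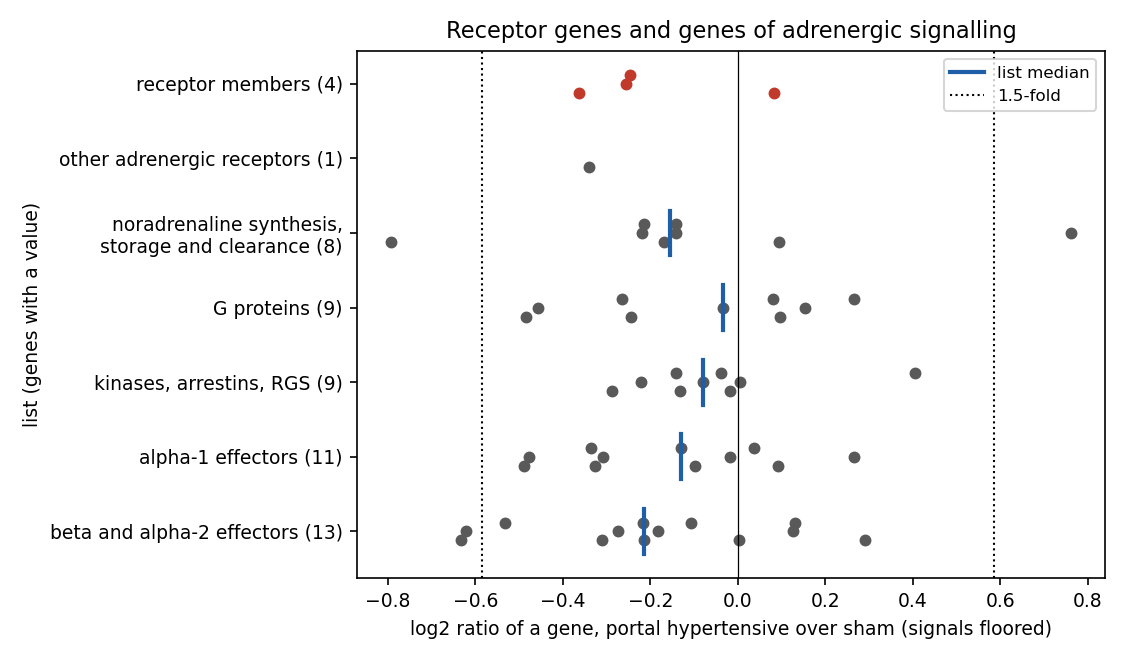
Log2 ratio of portal hypertensive over sham for each gene with a value (dots), by list, with list medians as vertical bars and 1.5-fold as dotted lines; signals were set to the floor first, so genes measured in 1 pool only show a lower limit. The 4 receptor genes with a value lie between -0.36 and 0.08, and the 4 dots past 1.5-fold are Slc22a2, Prkar1b and Creb1 on the lower side and Pnmt on the higher side.

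Marker genes of cell types in and around the artery, which carry adrenergic receptors of their own, were also compared between the pools. Smooth muscle markers were bright in both pools, with all 13 probe sets of 7 genes above the floor and summed signals of 684792 and 688987. Of the 7 genes 4 were below 0 and 3 above, and Acta2, the smooth muscle actin gene, had 3 log2 ratios below 0, namely -0.46, -0.32 and -0.21. The summed signal of adipocyte markers was 91356 and 111492, with 5 of 6 genes with a value above 0. Fabp4, the fat cell fatty acid binding protein gene, had 15433 and 22032, and Plin1, the lipid droplet coat protein gene, was below the floor. The 1 gene below 0 was Lep, the leptin gene, with log2 ratios of -0.55, 0.22 and -0.21 on its probe sets. Markers of sympathetic nerve summed to 23483 and 19527, with 3 genes above 0, 3 below it and Dbh and Nefl below the floor. The single probe set of Npy, the neuropeptide Y gene, made up most of both sums, with 20118 and 16002, and Prph, the peripherin gene, was past 1.5-fold on the higher side and above the floor in the portal hypertensive pool only. Markers of mast cells summed to 8196 and 16027, with 2 of 3 genes at least 1.5-fold higher, against 3.13% of all genes with a value. These were Cma1 with 3738.2 and 8609.4 and Cpa3 with 3673 and 6469.3, which made up most of both sums. Fcer1a was above the floor in the portal hypertensive pool only, and Kit was below it in both pools. Markers of endothelium summed to 8050 and 6435, and all 3 genes with a value were below 0. At least 1.5-fold lower were 2 of them, Icam2 at -1.13 and Nos3 at -0.78, against 5.04% of all genes with a value. However, 1 of the 3 measured Nos3 probe sets was higher, at 0.25. The remaining gene, Pecam1, had the highest signals of the list, 3408.7 and 3176.3, and a log2 ratio of only -0.10. The defining genes Vwf and Kdr were below the floor in both pools. Schwann cell markers summed to 45109 and 49662 and macrophage markers to 34501 and 39862. In each list 1 probe set made up most of both sums. It was that of Pmp22 with 34475.3 and 38289.5 for Schwann cells, and that of Lyz2 with 25530.3 and 29537.3 for macrophages. Mbp and Csf1r of these lists were below the floor in both pools. The part of all these cell types in the receptor signals was not tested. In pooled tissue, fewer cells of a type and less RNA per cell cannot be told apart.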

How the data were processed

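Total RNA was extracted with TRIzol and cleaned with RNeasy, per the labels. The values the authors deposited are linear signal intensities, 1 for each probe set on each array; how they were scaled is not stated in these sources. Trimmed means that leave out 2% at each end were 2504.33 (sham) and 2504.38, so no further scaling was applied. Per the file headers, the sham array used fluidics module 2 and a noted 17 µg of cRNA and the other array module 1 and 12.5 µg, both amounts with a question mark; these cannot be told apart from the operation.

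Gene names came from the platform's annotation table: leaving controls out, 8740 probe sets remained, of which 7006 had 1 gene symbol, 308 several and 1426 none. RefSeq identifiers of assembly GRCr8 matched 6985 and changed 0 symbols. Signals below 330.9 were set to it before log2. A gene's value was the median over probe sets above the floor on at least 1 array. Named genes were all receptors, the list members furthest from a ratio of 0 (at most 4 per list, measured in both pools) and direct partners of the receptors. Receptors and lists were chosen with earlier results of these data known. The alternatives were other floors, no floor, quantile normalization, loess, suffixed probe sets left out and other gene summaries. Ratio and scaling steps were tested on simulated data, with Python 3.11.15, numpy 2.4.6, pandas 2.3.3 and statsmodels 0.14.6.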

Additional observations from a re-analysis of the deposited data

How the results depend on the processing

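No paired analysis was possible because each group has 1 array. All ratios of receptor probe sets and genes kept their sign and moved by less than 0.30 under the alternatives that gave a value (29 and 31 values). Many of these values could not move. Where both signals exceed both floors, another floor or the removal of suffixed probe sets returns the same probe set ratio. Only quantile normalization and the loess could change such a ratio, so the count of values is no measure of stability. Which receptor probe sets counted as measured moved with the floor. With the floor at the 20th percentile (106.4), 8 receptor probe sets were above it on both arrays, 1 on 1 array and 1 on neither, and 1 receptor gene, Adra1b, was at least 1.5-fold lower; over the array 598 probe sets were lower and 430 higher, and the G protein, desensitisation and alpha-1 effector lists had 2, 1 and 1 lower genes. With the floor at the 60th percentile (889.84) these were 1, 0 and 9 receptor probe sets, and 110 lower and 69 higher on the array; the noradrenaline list had 0 lower and 0 higher genes, the alpha-1 effector median was -0.31 and the cyclic AMP effector list had 1 lower gene. With no floor they were 10, 0 and 0, with 1 receptor gene lower. On the array 1106 of 8740 probe sets were then lower, which is 12.7%, and 967 were higher. The noradrenaline list had 3 lower and 2 higher genes and the G protein list 2 lower. The desensitisation list had 1 lower and 1 higher, and the alpha-1 effector list 1 higher. At the other floors the number of probe sets compared differs, so receptor and list counts there are not set against a share of the array. With the floor at the highest bacterial or yeast control (242.4, chosen after seeing the data), 5 receptor probe sets were above it on both arrays and 1 on 1 array, and the G protein and alpha-1 effector lists had 2 and 1 lower genes. Without suffixed probe sets, 1 receptor probe set was above the floor on 1 array, 169 were lower and 95 higher on the array, the noradrenaline list had 0 higher genes, the G protein list 1 lower, and the cyclic AMP effector list 1 lower with a median of -0.11. After quantile normalization the cyclic AMP effector list had 1 lower gene, without Creb1, and with the probe set of highest signal the G protein median was 0.089. The cause was not tested beyond the construction of each alternative.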
